A study of Mus musculus with 12 samples.

Results

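Satellite cells, the stem cells that live in skeletal muscle, were compared in their activated and quiescent states on 8 of the 12 arrays of the series, 4 of each state. All cells came from hind limb muscles of C57BL/6J mice aged 8 to 12 weeks and were sorted by their binding of SM/C-2.6, an antibody raised to mouse satellite cells. Quiescent cells were taken straight from the sort, and by the labels over 97% of them carried Pax7. Activated cells had spent 4 days in DMEM with 20% FCS and bFGF at 2.5 ng/ml, and over 99% of them carried MyoD by the labels. The other 4 arrays hold non-myogenic cells, negative for SM/C-2.6 and for the leukocyte antigen CD45, taken straight from the sort, with under 1% myogenic cells. Their levels are given here beside the comparison only. Activation, culture and time since sorting differ together between the states and cannot be told apart. Nothing in the labels ties the arrays to separate animals or cultures. The p-values therefore cover the spread of these samples alone, and that spread may be technical. In bulk samples of this kind, fewer cells of a type and less RNA per cell cannot be told apart.

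A satellite cell lies between the muscle fibre and its basal lamina, and it reads that niche through receptors, adhesion molecules and secreted ligands and their inhibitors. On leaving quiescence the cell enters the division cycle, becomes a myoblast and builds nucleotides, amino acids and membranes for its daughters. Transcription factors of the Pax and basic helix-loop-helix families set its identity. The 4 functional classes described are surface receptors, secreted factors, transcription factors and metabolism, made up of 54 lists with 2849 genes in all. Of these genes 2423 had a probe set on the array and 1417 passed a filter on mean signal over all 12 arrays, among 7960 genes that passed it in all. By class, 283 of 753 listed receptor genes, 198 of 536 secreted factor genes, 308 of 646 transcription factor genes and 633 of 921 metabolic genes were tested. A gene may stand on lists of more than 1 class.

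Signals are scaled probe set intensities, in arbitrary units, and a log2 difference is activated minus quiescent of log2(signal + 14.70), which understates the change of genes with low signal. The fit was limma over all 12 arrays with a term for the labelling kit, small-sample or two-cycle, each of which gave 2 arrays in each state. "Rose" and "fell" stand for genes that it called with an adjusted p (Benjamini-Hochberg) under 0.05. The sign ± after a log2 difference is the standard error (SE), with n = 4 arrays in each state. Correlations of arrays, taken over genes that are no independent replicates, ran from r = 0.903 to 0.989 inside a group and from 0.623 to 0.691 between activated and quiescent arrays. As a check of the labels, the satellite cell factor gene Pax7 had signals of 1004, 1899, 743 and 640.2 on quiescent and 109, 125, 65.0 and 61.8 on activated replicates 1 to 4, and the myoblast factor gene Myod1 1316, 813, 1399.9 and 1580.4 on quiescent and 3841, 3305, 5541 and 5829 on activated replicates 1 to 4. Neither gene's groups overlapped, and each gene was higher in the state whose label names its protein.

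Sums of listed markers of other cell types moved with the comparison, and single genes can carry much of a sum. The summed signal of 19 endothelial markers was 6430 to 11286 on the quiescent arrays, 487 to 566 on the activated arrays and 26629 to 33786 on the non-myogenic arrays. For 14 fibroblast and fibroadipogenic markers these ranges were 14500 to 36468, 1571 to 2178 and 59724 to 108434. Schwann cell markers (8 measured) summed to 3061 to 4013 in quiescent and 102 to 225 in activated cells, and pericyte and smooth muscle markers (12) to 9764 to 12094 and 3688 to 7237. Of the Schwann sums Pmp22 alone gave 2438 to 2701 on the quiescent arrays. The pericyte list holds Notch3 and Des, which were higher on every quiescent than on every non-myogenic array. Leukocyte markers (18) ran from 339 to 3096 and from 265 to 345. Mature myofibre markers (18) ran from 4283 to 13288, from 2091 to 22923 and, in non-myogenic cells, from 17637 to 50658. On this list the activated arrays differed by kit, for instance Myl1 at 1429, 3194, 14.6 and 31.3 on activated replicates 1 to 4. Its median log2 difference was 1.25 with small-sample and -2.76 with two-cycle labelling. Each kit tested alone gave 8 higher and 3 lower myofibre genes for small-sample labelling, and 0 and 17 for two-cycle labelling. The leukocyte maximum was on quiescent array 1, where S100a8 stood at 1220 and S100a9 at 882. No marker of these lists was at 0 on all arrays. The 10 satellite cell and myoblast markers summed to 17838 to 19121 in quiescent, 12292 to 16124 in activated and 1134 to 1576 in non-myogenic cells. For Gapdh, the control probe sets of the 3' and 5' ends of the transcript gave a 3' over 5' ratio of 4.02 ± 0.969 (SD, n = 4) in quiescent and 1.75 ± 0.411 in activated cells. The part of these differences in the results below was not tested.

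Receptor, secreted factor and transcription factor genes were mostly lower in activated cells, while metabolic genes went both ways. Over all 7960 genes tested, 5574 (70.0%) passed, of which 2532 (31.8% of those tested) rose and 3042 (38.2%) fell, and the median log2 difference was -0.11. Counts of single lists below are to be read beside these shares of all genes. Of 283 tested receptor genes 45 (15.9%) rose and 186 (65.7%) fell, with a median log2 difference of -1.06. Secreted factor genes gave 25 higher (12.6%) and 124 lower (62.6%) of 198, with a median of -1.01, and transcription factor genes 37 higher (12%) and 199 lower (64.6%) of 308, with a median of -1.0. Of 633 metabolic genes 246 (38.9%) rose and 216 (34.1%) fell, with a median of 0.09. These medians were -0.90 and -1.17, -0.80 and -1.16, -0.97 and -1.08, and 0.14 and 0.06 within the small-sample kit and the two-cycle kit. The split of calls depended on the scaling: rising genes made up 45.4% of all calls, against 58.1% unscaled, 65.1% after median centring and 51.1% after quantile normalization, and the median log2 difference of the genes tested was 0.14, 0.30 and 0.02 under these. The median move of a gene tested under both scalings was 0.30, 0.41 and 0.09. Falling genes outnumbered rising ones in the first 3 classes under every scaling, and in metabolism rising genes outnumbered falling ones.

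**Figure D1:**
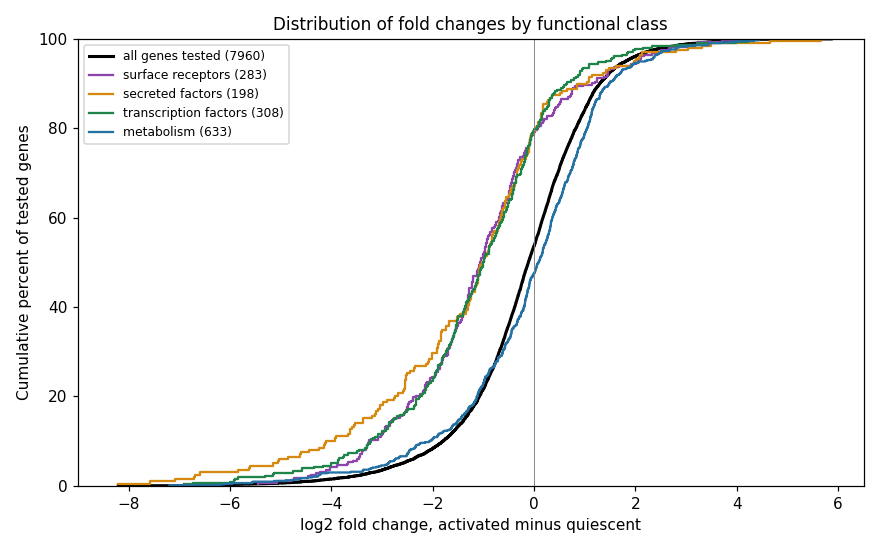
Cumulative percent of tested genes (y axis) against the log2 difference, activated minus quiescent (x axis), for all 7960 genes and the 4 classes. The curves of receptors, secreted factors and transcription factors lie to the left of that of all genes, with medians of -1.06, -1.01 and -1.0 against -0.11, and that of metabolism to the right, with a median of 0.09.

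The signal filter bears on these counts, since a gene high in 1 group alone could pass it. Such a gene need not differ between the states. Of the 283 receptor genes 103 (36.4%) had a group mean at or above the filter of 47.03 in quiescent and not in activated cells, and 15 the reverse. The same held for 75 of 198 secreted factor genes (37.9%), 67 of 308 transcription factor genes (21.8%) and 77 of 633 metabolic genes (12.2%), against 959 of all 7960 (12.0%). A further 31 secreted factor genes reached it in neither state.

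**Figure D2:**
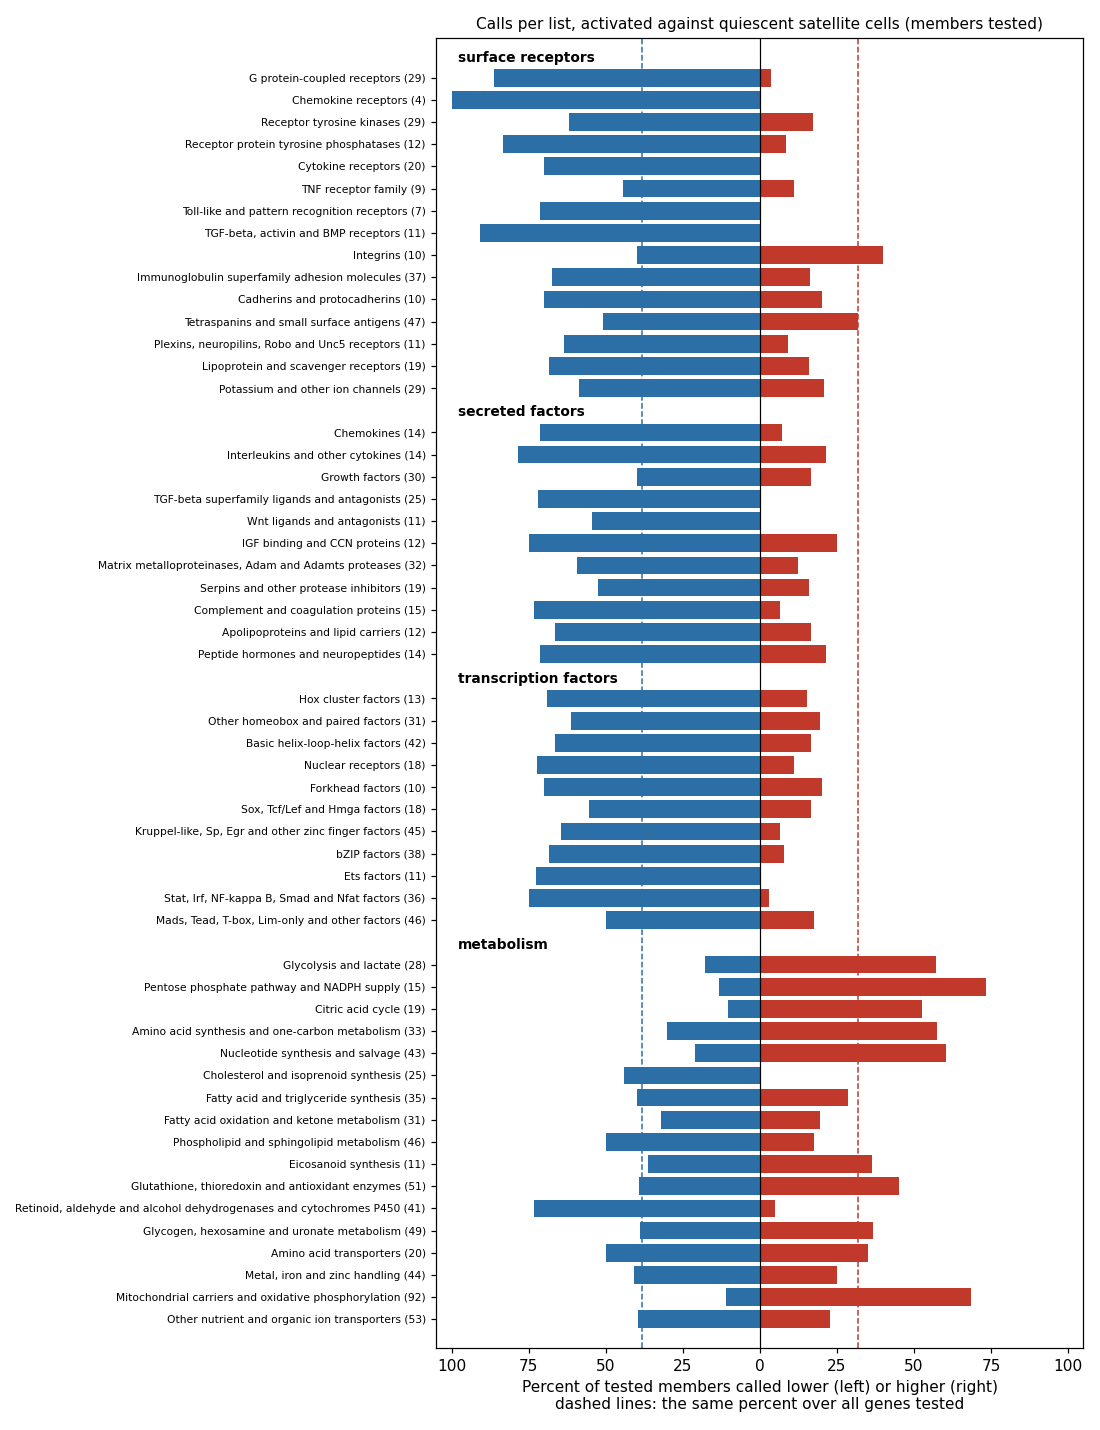
Percent of the tested members of each list called lower (bars to the left) or higher (bars to the right) in activated cells, with the number tested beside the list's name and dashed lines at the 38.2% and 31.8% of all genes tested. Every receptor list lies past the dashed line on the left, while the bars on the right are longest for the pentose phosphate pathway, oxidative phosphorylation and nucleotide synthesis.

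Among surface receptors and channels the largest increases were those of Kcnn4, Cdh2, Ptprn and Tspan33. Genes of largest change, here and below, were picked among those whose quiescent and activated arrays do not overlap, so their separation is no result. Kcnn4, a calcium-activated potassium channel, had signals of 9.10, 13.1, 28.7 and 25.4 on quiescent and 519, 748, 491 and 524 on activated replicates 1 to 4 (log2 difference 4.14 ± 0.24, adjusted p 5.52e-09). Cdh2, the adhesion molecule N-cadherin, had 47.6, 101, 53.8 and 64.1 on quiescent and 1337, 1161, 862 and 798 on activated replicates 1 to 4 (log2 difference 3.71 ± 0.24, adjusted p 1.90e-08). No quiescent array passed 28.7 for Kcnn4 or 101 for Cdh2, and all activated arrays lay between 491 and 1337. Ptprn, a receptor-type phosphatase-like protein of secretory vesicles, stood at 16.2, 7.64, 8.50 and 11.5 on quiescent and 219.6, 314, 183 and 202 on activated replicates 1 to 4 (log2 difference 3.24 ± 0.23). The tetraspanin gene Tspan33 stood at 17.5, 21.8, 12.5 and 9.67 on quiescent and 495, 256, 182 and 204 on activated replicates 1 to 4 (log2 difference 3.22 ± 0.24). For these genes too the highest quiescent array lay far below the lowest activated one.

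The largest decreases among receptors were those of Kcne4, Cd34, Calcr and Scara5. Kcne4, a regulatory subunit of potassium channels, had signals of 1254, 1141, 734 and 785 on quiescent and 2.52, 3.28, 21.3 and 6.89 on activated replicates 1 to 4 (log2 difference -5.45 ± 0.25, adjusted p 7.65e-10). Calcr, the calcitonin receptor, had 991, 701, 647 and 735 on quiescent and 3.91, 1.92, 16 and 14.9 on activated replicates 1 to 4 (log2 difference -5.07 ± 0.22, adjusted p 5.23e-10). For Kcne4 both quiescent arrays of the small-sample kit were above those of the two-cycle kit, for Calcr only array 1 was. The fall of both genes was larger within that kit than within the two-cycle kit (log2 differences of -6.11 and -4.79 for Kcne4 and -5.59 and -4.55 for Calcr, interaction of kit and group with adjusted p 0.0413 and 0.0386). Over all genes this interaction passed in 193 (2.42%). Cd34, a sialomucin of stem and endothelial cells, stood at 1611, 1490.0, 1362 and 1640.5 on quiescent and 28.0, 25.7, 21.2 and 10.1 on activated replicates 1 to 4 (log2 difference -5.45 ± 0.17). Scara5, a scavenger receptor for ferritin, stood at 463, 464, 545 and 564 on quiescent and 4.63, 3.0, 2.12 and 6.56 on activated replicates 1 to 4 (log2 difference -4.80 ± 0.12). All activated arrays of both lay below 30 units, and the non-myogenic cells had mean signals of 3448 ± 394 (SD, n = 4) for Cd34 and 3629.5 ± 239 for Scara5, against 9.22 ± 4.09 for Calcr.

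**Figure D3:**
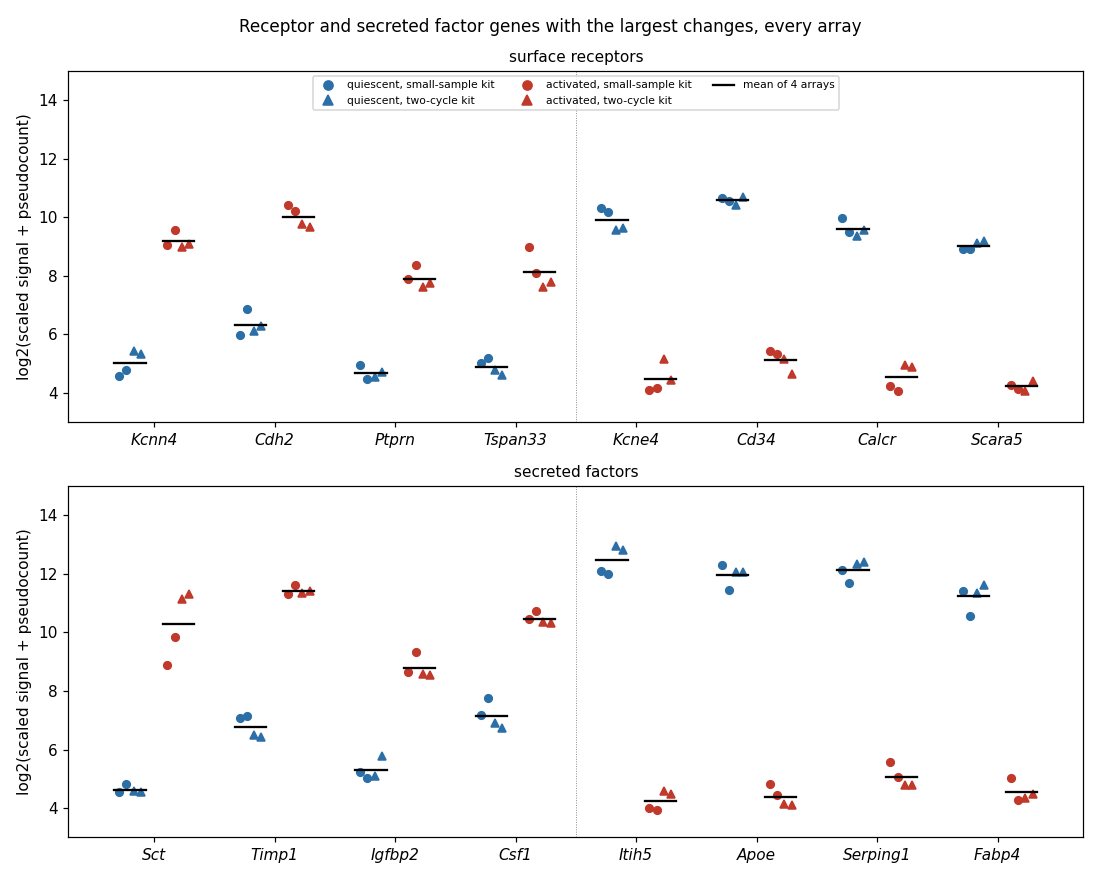
Log2(signal + 14.70) on each quiescent (blue) and activated (red) array, circles for the small-sample and triangles for the two-cycle kit, for the 4 receptor genes (top) and 4 secreted factor genes (bottom) with the largest increase (left of the dotted line) and decrease (right); bars are means of 4 arrays. The genes were chosen among those whose quiescent and activated arrays do not overlap. Of all 7960 genes, 1973 (24.8%) had no overlap with the activated arrays higher and 2276 (28.6%) with them lower.

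Receptors that couple to G proteins, which sense hormones, nucleotides and peptides, fell in 25 of 29 tested genes (median log2 difference -1.14). After Calcr the largest decreases were those of P2ry14, a receptor for UDP-glucose, and Aplnr, the apelin receptor, with log2 differences of -4.11 ± 0.15 and -4.02 ± 0.24. Only Gprc5b, an orphan receptor, rose (log2 difference 1.91 ± 0.15). Smo, the transducer of Hedgehog signals, Adgrg1 and the thromboxane receptor gene Tbxa2r did not pass, with log2 differences of -0.33 ± 0.17 (adjusted p 0.0923), 0.50 ± 0.34 (0.201) and -0.43 ± 0.19 (0.0553). Of the receptor activity-modifying proteins, which pair with Calcr and its relative Calcrl to set ligand choice, Ramp2 fell, with a log2 difference of -3.39 ± 0.20, while Ramp1 (0.03 ± 0.22, adjusted p 0.914) and Ramp3 (-0.33 ± 0.14, 0.0536) did not pass. Ramp2 is also on the endothelial list and had a signal of 2143 ± 328 (SD, n = 4) in non-myogenic cells.

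All 4 tested chemokine receptor genes fell, among them Ccrl2, Ackr1 and Ackr3, which bind chemokines without classical signalling, with log2 differences of -2.47 ± 0.22, -2.19 ± 0.28 and -1.33 ± 0.18. The receptor of Cxcl12, Cxcr4, a guide of migrating cells, was the other one (log2 difference -1.69 ± 0.26), while Cxcl12 itself was the only chemokine gene to rise (log2 difference 1.04 ± 0.19). At its other tested probe set Cxcl12 was not called (log2 difference 0.48).

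Receptor tyrosine kinases, the receptors of most growth factors, fell in 18 and rose in 5 of 29 tested genes (median log2 difference -1.06). Fgfr1 and Fgfr4, receptors for fibroblast growth factors known from satellite cells, were both lower. Fgfr1 had signals of 1603, 2373, 1069 and 1584 on quiescent and 211, 149, 95.2 and 102 on activated replicates 1 to 4 (log2 difference -3.45 ± 0.18), and Fgfr4 of 4114, 2329, 6047 and 4828 on quiescent and 827, 259.5, 284 and 279.6 on activated replicates 1 to 4 (log2 difference -3.44 ± 0.38). Every activated array was below every quiescent one for both genes, and the activated small-sample array 1 stood well above the other activated arrays for Fgfr4. In non-myogenic cells Fgfr1 had a signal of 556 ± 81.2 (SD, n = 4) and Fgfr4 of 35.4 ± 19.5. Egfr, the receptor of epidermal growth factor, fell, with a log2 difference of -3.50 ± 0.15, as did Tek, the angiopoietin receptor of endothelial cells, at -4.22 ± 0.20, with a non-myogenic signal of 2215 ± 585. Axl, a receptor for Gas6, rose from 220.5 ± 78.3 to 1004 ± 112 (SD, n = 4; log2 difference 2.16 ± 0.19), and Musk, which organises the neuromuscular junction, rose by a log2 difference of 0.81 ± 0.19.

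The insulin-like growth factor pathway, which drives growth of myoblasts, did not move as one. Its signalling receptor gene Igf1r did not pass (log2 difference -0.33 ± 0.22, adjusted p 0.192), and Igf2r, which clears Igf2, fell, with a log2 difference of -1.83 ± 0.38 with overlapping groups, since activated array 2 reached 558 and the lowest quiescent array 500.0. Within the small-sample kit alone Igf2r had an adjusted p of 0.117. Its log2 difference lay between -1.10 and -1.25 without quiescent replicate 2, 3 or 4, activated replicate 2 or non-myogenic replicate 1, and was -2.29 without quiescent replicate 1. Each of these runs chose the probe set anew, so a moved value can come from another probe set of Igf2r. At a fixed probe set, leaving out a non-myogenic array does not change the size of this difference. The ligand gene Igf1 fell from 1096 ± 291 to 21.0 ± 16.3 (SD, n = 4; log2 difference -5.05 ± 0.31), beside 3076 ± 663 in non-myogenic cells. Igf2 had signals of 799, 923, 599 and 813 on quiescent and 1839.5, 2011, 462 and 449.8 on activated replicates 1 to 4. Its activated arrays were the highest of all with the small-sample kit and the lowest of all with the two-cycle kit, so that the log2 differences within the kits were 1.15 and -0.60 (interaction of kit and group with adjusted p 0.00476). Over both kits Igf2 did not pass (log2 difference 0.28 ± 0.38, adjusted p 0.525).

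Receptor-type protein tyrosine phosphatases, which remove phosphate from signalling proteins at the membrane, fell in 10 of 12 tested genes, rose in Ptprn alone, and Ptpra did not pass (log2 difference -0.42 ± 0.19, adjusted p 0.0657). The largest decreases were those of Ptprz1, a receptor for pleiotrophin, Ptprb of endothelial cells, and Ptprf, with log2 differences of -4.74 ± 0.27, -4.40 ± 0.20 and -3.68 ± 0.21. Ptprz1 had a signal of 103 ± 35.5 (SD, n = 4) in non-myogenic cells and Ptprb 1462 ± 216.

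Cytokine receptors fell in 14 of 20 tested genes and rose in none (median log2 difference -1.14). Subunits that read interleukin 6 family ligands were lower. The oncostatin M receptor gene Osmr had signals of 571, 694, 399 and 342 on quiescent and 21.2, 15.1, 6.75 and 2.73 on activated replicates 1 to 4 (log2 difference -4.31 ± 0.15). Its activated arrays were close to 0, while its quiescent arrays lay at 342 or more. The leukaemia inhibitory factor receptor gene Lifr and the shared subunit gene Il6st fell, with log2 differences of -2.94 ± 0.28 and -2.16 ± 0.17. Il17ra, the interleukin 17 receptor, fell, with a log2 difference of -2.43 ± 0.18. On the ligand side the cytokine genes Lif, Il6 and Clcf1 fell too, with log2 differences of -1.35 ± 0.23, -3.15 ± 0.65 and -2.50 ± 0.17.

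The tumour necrosis factor receptor family fell in 4 (44.4%) and rose in 1 (11.1%) of 9 tested genes, against 38.2% and 31.8% of all genes. Its median log2 difference of -0.21 was 0.20 after median centring. Tnfrsf19, the nerve growth factor receptor gene Ngfr and Tnfrsf1a fell, with log2 differences of -2.53 ± 0.23, -2.02 ± 0.31 and -1.42 ± 0.13. Tnfrsf12a, the receptor of the cytokine Tweak, had signals of 3102, 3282, 979 and 1288 on quiescent and 2331, 2401, 3346 and 3017 on activated replicates 1 to 4. Its quiescent arrays were higher than its activated ones with the small-sample kit and lower with the two-cycle kit (log2 differences of -0.43 and 1.49), and over both kits it did not pass (log2 difference 0.53 ± 0.36, adjusted p 0.198). Ltbr, Tnfrsf1b and Tnfrsf21 did not pass either, with log2 differences of -0.21 ± 0.14, -0.16 ± 0.15 and -0.05 ± 0.17.

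Receptors for transforming growth factor beta, activins and bone morphogenetic proteins, which restrain myoblast growth and differentiation, fell in 10 of 11 tested genes (median log2 difference -1.35). The decoy receptor gene Bambi, the signalling receptor gene Tgfbr1 and the activin receptor gene Acvr2b fell, with log2 differences of -2.55 ± 0.27, -1.71 ± 0.13 and -1.69 ± 0.16. Bmpr1a did not pass (log2 difference -0.49 ± 0.21, adjusted p 0.0568; 0.00 and -0.98 within the small-sample kit and the two-cycle kit), and was called lower as the mean of its probe sets (log2 difference -0.59, adjusted p 0.000691). The list of Toll-like and other pattern recognition receptors also holds the lectin gene Clec14a, and 5 of its 7 tested genes fell. Log2 differences were -2.12 ± 0.22 for Clec14a, -1.58 ± 0.21 for Tlr3 and -1.28 ± 0.19 for Tlr2. Clec14a had a signal of 226 ± 21.2 (SD, n = 4) in non-myogenic cells. Cd14 (-0.33 ± 0.19) and Ly96 (-0.10 ± 0.18), partners of Tlr4, did not pass. Ly96 had mean signals of 41.7 in quiescent and 39 in activated cells, and passed the filter through the non-myogenic cells alone.

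Integrins, the receptors for matrix proteins, rose in 4 and fell in 4 of 10 tested genes, and the median log2 difference of -0.18 was 0.13 unscaled, 0.23 after median centring and -0.24 after quantile normalization. The laminin receptor genes Itga6 and Itgb4, partners in 1 heterodimer, rose by log2 differences of 2.11 ± 0.14 and 2.01 ± 0.32. Itgb5 of the vitronectin receptor fell, with a log2 difference of -2.50 ± 0.22, as did the integrin-like gene Itgbl1 at -1.69 ± 0.19 and the platelet integrin gene Itga2b at -1.32 ± 0.15. Itga7, the laminin receptor of muscle cells, had mean signals of 1268 ± 65.9 and 1227 ± 278 (SD, n = 4) and a log2 difference of -0.07 ± 0.17 (adjusted p 0.709). Itgav did not pass (log2 difference -0.28 ± 0.20, adjusted p 0.226).

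Adhesion molecules of the immunoglobulin superfamily fell in 25 and rose in 6 of 37 tested genes. Cd276, an immune checkpoint ligand, and Alcam, a homophilic adhesion molecule, rose by log2 differences of 3.08 ± 0.19 and 2.46 ± 0.31. Mpzl2, the endothelial gene Esam and Icam1, a ligand of leukocyte integrins, fell, with log2 differences of -3.88 ± 0.18, -3.57 ± 0.17 and -3.40 ± 0.30 on the same scale. Non-myogenic signals were 28.8 ± 2.92 (SD, n = 4) for Mpzl2 and 1762 ± 87.0 for Esam. Of 10 cadherin genes 7 fell, with Cdh13 at a log2 difference of -2.77 ± 0.20, the endothelial Cdh5 at -2.64 ± 0.15 and Pcdhb20 at -1.64 ± 0.20. Cdh11 rose together with Cdh2 (log2 difference 2.10 ± 0.26), and Pcdh7 did not pass (0.18 ± 0.24, adjusted p 0.509). The kits gave Pcdh7 calls of opposite direction, higher with small-sample labelling (0.84, adjusted p 0.0409) but lower with two-cycle labelling (-0.47, 0.0438), and it was called higher after median centring (0.60, 0.0314) and quantile normalization (0.59, 0.0391).

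Tetraspanins and other small surface antigens fell in 24 and rose in 15 of 47 tested genes (median log2 difference -0.68). The hyaluronan receptor gene Cd44 rose by a log2 difference of 2.09 ± 0.15, while Cd93, found on endothelial and myeloid cells, and Tspan13 fell, with log2 differences of -4.03 ± 0.22 and -3.37 ± 0.33. The list of guidance receptors, which also holds the sorting receptor gene Sort1, fell in 7 of 11 tested genes. Plxnd1, Plxna2 and Sort1 had log2 differences of -2.57 ± 0.15, -1.86 ± 0.18 and -2.38 ± 0.37. Unc5b, a netrin receptor, was the 1 that rose (log2 difference 2.71 ± 0.29). Nrp2, Plxnc1 and Robo1 did not pass, with log2 differences of -0.22 ± 0.14, -0.09 ± 0.25 and -0.48 ± 0.22. Sort1 was at -1.47 and -3.29 within the small-sample kit and the two-cycle kit (interaction adjusted p 0.00792).

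Lipoprotein and scavenger receptors fell in 13 and rose in 3 of 19 tested genes (median log2 difference -1.54). Cd36, which takes up fatty acids, and Sorl1, a sorting receptor, fell, with log2 differences of -4.47 ± 0.20 and -3.43 ± 0.15, while the transferrin receptor gene Tfrc, through which cells take up iron, rose by 2.51 ± 0.21 and Lrp4, the agrin receptor that partners Musk, by 1.47 ± 0.19. Lrp10, Scarb1 and Sorcs2 did not pass, with log2 differences of 0.20 ± 0.17, -0.17 ± 0.19 and 0.08 ± 0.24. Ion channels fell in 17 and rose in 6 of 29 tested genes. Cacng1, a subunit of the muscle calcium channel, rose by a log2 difference of 2.66 ± 0.32 (3.44 and 1.87 within the small-sample kit and the two-cycle kit, interaction adjusted p 0.0154), and the calcium channel gene Cacna1d and the water channel gene Aqp1 fell, with log2 differences of -3.08 ± 0.20 and -3.02 ± 0.24.

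Among secreted factors the largest increases were those of Sct, Timp1, Igfbp2 and Csf1. Sct encodes secretin, a peptide hormone best known from the gut, and had signals of 8.86, 13.8, 9.23 and 8.68 on quiescent and 456, 913, 2232 and 2546 on activated replicates 1 to 4 (log2 difference 5.67 ± 0.40, adjusted p 3.56e-08). All quiescent arrays were near 0, and the activated arrays of the two-cycle kit were the highest, with log2 differences of 4.67 and 6.66 within the small-sample kit and the two-cycle kit (interaction adjusted p 0.00561). Timp1, an inhibitor of matrix metalloproteinases, had 121, 126, 74.7 and 70.6 on quiescent and 2552, 3158, 2565 and 2704 on activated replicates 1 to 4 (log2 difference 4.65 ± 0.18, adjusted p 1.97e-10). Igfbp2, which binds insulin-like growth factors, stood at 22.6, 18.0, 19.8 and 40.6 on quiescent and 387, 624, 369 and 359 on activated replicates 1 to 4 (log2 difference 3.49 ± 0.21). Csf1, the growth factor of macrophages, stood at 132, 202, 106 and 90.8 on quiescent and 1406, 1691, 1287 and 1263 on activated replicates 1 to 4 (log2 difference 3.32 ± 0.15), and all 3 of its other tested probe sets were called in the same direction. For all 4 genes the activated arrays lay above every quiescent array, and activated array 2 was the highest for Timp1, Igfbp2 and Csf1.

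The largest decreases among secreted factors were those of Itih5, Apoe, Serping1 and Fabp4. Itih5, a member of the inter-alpha-trypsin inhibitor family that binds hyaluronan, had signals of 4367, 4050.1, 7932 and 7187 on quiescent and 1.34, 0.703, 9.40 and 7.87 on activated replicates 1 to 4 (log2 difference -8.21 ± 0.12, adjusted p 2.09e-14). Apoe, the lipid carrier apolipoprotein E, had 4978, 2807, 4227 and 4289 on quiescent and 13.8, 7.36, 2.78 and 2.62 on activated replicates 1 to 4 (log2 difference -7.58 ± 0.24, adjusted p 3.31e-11). The lowest quiescent value of either gene, 2807, thus stood against activated arrays near 0. Serping1, the inhibitor of complement component C1, stood at 4490.5, 3322, 5174 and 5358 on quiescent and 33.5, 18.5, 13.2 and 12.8 on activated replicates 1 to 4 (log2 difference -7.09 ± 0.23). Fabp4, a fatty acid binding protein of capillaries and fat cells that can be released, stood at 2736, 1498, 2611 and 3162 on quiescent and 18.1, 4.92, 5.56 and 7.54 on activated replicates 1 to 4 (log2 difference -6.71 ± 0.23). In both the quiescent small-sample array 2 was the lowest of its group and still far above every activated array. Mean signals in non-myogenic cells were 6098 ± 1201 (SD, n = 4) for Itih5, 1274 ± 390.4 for Apoe, 7791 ± 1954 for Serping1 and 5893 ± 1086 for Fabp4, so that all 4 genes were also high in cells that bind no SM/C-2.6.

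Chemokines, which attract leukocytes, fell in 10 of 14 tested genes and rose in Cxcl12 alone, given above. Cxcl1, a neutrophil attractant, had signals of 2324, 2127, 2467 and 2283 on quiescent and 16.3, 2.20, 12.0 and 3.06 on activated replicates 1 to 4 (log2 difference -6.69 ± 0.34), and its quiescent arrays were close to one another and its activated arrays near 0. Cxcl2 and Cxcl10 fell, with log2 differences of -3.38 ± 0.65 and -2.52 ± 0.40. Ccl2, Ccl7 and Ccl8, attractants of monocytes, did not pass, with log2 differences of -0.89 ± 0.38, -1.03 ± 0.49 and -0.46 ± 0.21 and adjusted p of 0.0536, 0.0726 and 0.0589. On the 8 activated and quiescent arrays alone Ccl2 was called lower (log2 difference -0.89, adjusted p 0.0226). Within the small-sample kit alone Ccl2 (-1.28, 0.0402) and Ccl8 (-0.94, 0.015) were called lower. Within the two-cycle kit their log2 differences were -0.49 and 0.02. Ccl7 had mean signals of 42.5 in quiescent and 11.7 in activated cells, and passed the filter through the non-myogenic cells alone. Interleukins and other cytokines fell in 11 and rose in 3 of 14 tested genes. Besides Csf1, the cytokine gene Mif rose (log2 difference 1.96 ± 0.20), and Kitl, the ligand of the Kit receptor, fell, with a log2 difference of -1.92 ± 0.26.

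Growth factor genes fell in 12 (40%) and rose in 5 (16.7%) of 30 tested genes, against 38.2% and 31.8% of all genes. Their median log2 difference of -0.35 was 0.06 after median centring. Pdgfc, of the platelet-derived growth factor family, and Vegfb, of the vascular endothelial growth factor family, rose by log2 differences of 1.49 ± 0.23 and 1.41 ± 0.35. Beside Igf1, the small leucine-rich proteoglycan gene Ogn and Hdgfl3 fell, with log2 differences of -5.03 ± 0.44 and -2.56 ± 0.19, and the fall of Ogn was -3.68 and -6.37 within the small-sample kit and the two-cycle kit (interaction adjusted p 5.19e-05).

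Ligands of the transforming growth factor beta superfamily and their antagonists fell in 18 of 25 tested genes and rose in none (median log2 difference -1.83). The largest decreases joined ligands and an antagonist of the same pathway. Bmp6 had signals of 1635, 2077, 1680.3 and 1954 on quiescent and 8.91, 4.22, 1.06 and 3.94 on activated replicates 1 to 4 (log2 difference -6.60 ± 0.17). Bmp4, another bone morphogenetic protein, fell, with a log2 difference of -5.61 ± 0.19, as did Chrdl2, a chordin-like protein that binds such ligands, at -5.85 ± 0.17. Signals in non-myogenic cells were 782 ± 132 (SD, n = 4) for Bmp6, 554 ± 132 for Bmp4 and 25.1 ± 7.96 for Chrdl2, against 4.53 ± 3.25, 16.3 ± 8.13 and 21.6 ± 9.89 in activated cells. Chrdl2 alone was thus in the same low range in both.

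Wnt ligands and antagonists fell in 6 and rose in none of 11 tested genes. Wnt4 fell, with a log2 difference of -3.56 ± 0.24, as did the antagonist gene Sfrp4 at -1.90 ± 0.18 and Wnt11 at -0.99 ± 0.18. Wnt2, Wnt5a, Wnt6, Wnt7b and Sfrp2 did not pass, with log2 differences of 0.13 ± 0.25, 0.14 ± 0.28, -0.48 ± 0.25, 0.13 ± 0.30 and 0.09 ± 0.19. Wnt2 and Wnt5a had mean signals near 10 in both states and passed the filter through the non-myogenic cells alone. So did Sfrp2, with mean signals of 34.6 in quiescent, 39.9 in activated and 1042 in non-myogenic cells.

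Proteins that bind insulin-like growth factors and the matrix-associated CCN proteins split into 9 lower and 3 higher genes of 12 tested. Igfbp4 fell, with a log2 difference of -4.13 ± 0.26, as did the serine protease gene Htra1 at -3.54 ± 0.25 and Ccn2, also known as connective tissue growth factor, at -3.37 ± 0.25, while Ccn4 rose by 2.13 ± 0.19 beside Igfbp2. Leaving out quiescent replicate 1 or activated replicate 1 or 2, with the probe set chosen anew, put Htra1 at -4.21, -4.19 and -4.37. Its other probe set had a log2 difference of -4.12 with no array left out. At the probe set used, Htra1 was at -2.80 and -4.27 within the small-sample kit and the two-cycle kit (interaction adjusted p 0.00481). Matrix proteases and their inhibitors fell in 19 and rose in 4 of 32 tested genes. The proteases Htra3, Adamts1 and Mmp2, a gelatinase, fell, with log2 differences of -5.63 ± 0.23, -4.86 ± 0.30 and -4.44 ± 0.30, whereas Timp1 and Pcolce2 (1.93 ± 0.13), an enhancer of procollagen processing, rose and are no proteases themselves.

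Serpins and other protease inhibitors fell in 10 and rose in 3 of 19 tested genes. Serpini1, neuroserpin, fell, with a log2 difference of -4.10 ± 0.23, while Serpinf1, the pigment epithelium-derived factor, and the cystatin gene Cst6 rose by 2.08 ± 0.18 and 2.81 ± 0.22. Complement and coagulation genes fell in 11 of 15, led by the endothelial von Willebrand factor gene Vwf, the complement protease gene C1s1 and the chaperone clusterin gene Clu, with log2 differences of -5.16 ± 0.36, -3.91 ± 0.24 and -3.63 ± 0.17. Masp1, a protease of the lectin pathway of complement, rose by 2.00 ± 0.27. C2, Cfb and Mfge8 did not pass, with log2 differences of -0.37 ± 0.25, -0.25 ± 0.23 and -0.10 ± 0.22. C2 and Cfb had mean signals of 20.1 and 13.2 in quiescent and 12.4 and 8.3 in activated cells. Both passed the filter through the non-myogenic cells alone, with 349 for C2 and 257 for Cfb.

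Lipid carriers fell in 8 of 12 tested genes, with Apod at a log2 difference of -3.04 ± 0.26, but the fatty acid binding protein genes Fabp5 and Fabp7 rose by 2.10 ± 0.15 and 3.05 ± 0.21. The muscle form Fabp3 had log2 differences of 1.02 and -1.35 within the small-sample kit and the two-cycle kit (interaction adjusted p 0.0128) and did not pass over both (-0.17 ± 0.41), and neither did the sterol carrier gene Npc2 (0.18 ± 0.17). Peptide hormones fell in 10 of 14 tested genes. The endothelin gene Edn3 had signals of 301, 415, 859 and 1169 on quiescent and 16.1, 3.42, 22.6 and 4.92 on activated replicates 1 to 4 (log2 difference -4.60 ± 0.28), with quiescent arrays of the two-cycle kit above those of the small-sample kit and all activated arrays far lower. Pomc, the precursor of several peptide hormones, did not pass (log2 difference -0.34 ± 0.16, adjusted p 0.08). Nppc, a natriuretic peptide, fell, with a log2 difference of -4.14 ± 0.20, and non-myogenic cells had 12.2 ± 4.94 (SD, n = 4) for Edn3 and 31.3 ± 8.79 for Nppc. Of the stanniocalcins, Stc1 fell, with a log2 difference of -1.30 ± 0.15 and Stc2 rose by 0.52 ± 0.18 (adjusted p 0.0195). The call of Stc2 was lost without quiescent replicate 2 (log2 difference 0.41, adjusted p 0.0617) and without activated replicate 1 (0.37, 0.076).

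Among transcription factors the largest increases were those of Hmga2, Hes6, Prrx2 and Foxc2. Hmga2, a chromatin protein that bends DNA and is known from fetal stem cells, had signals of 57.5, 63.0, 30.8 and 22.8 on quiescent and 977, 1668, 991 and 819 on activated replicates 1 to 4 (log2 difference 4.29 ± 0.19, adjusted p 5.25e-10). Hes6, an inhibitor of the Notch target Hes1, had 126, 91.4, 133 and 228 on quiescent and 2607, 2136, 3402 and 3338 on activated replicates 1 to 4 (log2 difference 4.22 ± 0.19, adjusted p 6.17e-10). In each gene the lowest activated array was several times the highest quiescent one. The homeobox gene Prrx2 stood at 25.6, 29.6, 20.4 and 32.5 on quiescent and 634, 419.6, 823 and 789 on activated replicates 1 to 4 (log2 difference 3.99 ± 0.19). The forkhead gene Foxc2 stood at 16, 22.3, 1.61 and 23.8 on quiescent and 146, 329.8, 301 and 296 on activated replicates 1 to 4 (log2 difference 3.22 ± 0.31). Activated array 1 was the lowest activated array for Foxc2 and quiescent array 3 was close to 0, and the groups did not overlap.

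The largest decreases were those of Nr4a1, Atf3, Egr2 and Cebpd. Nr4a1, an orphan nuclear receptor, had signals of 5065, 3782, 7506 and 7972 on quiescent and 53.6, 42.2, 15.6 and 32.5 on activated replicates 1 to 4 (log2 difference -6.91 ± 0.38, adjusted p 4.15e-09). Atf3, a stress-induced bZIP factor, had 3254, 2798, 3854 and 4328 on quiescent and 60.8, 20.8, 13.4 and 1.20 on activated replicates 1 to 4 (log2 difference -6.74 ± 0.46, adjusted p 2.71e-08). Quiescent arrays of both were high, most of all with the two-cycle kit, and activated arrays at most 60.8. Egr2, a zinc finger factor, stood at 3090.4, 1489.7, 4932 and 3389 on quiescent and 51.2, 36.4, 28.1 and 17.5 on activated replicates 1 to 4 (log2 difference -6.00 ± 0.46). Cebpd, a CCAAT-binding bZIP factor, stood at 3934, 4071, 6062 and 6508 on quiescent and 73.0, 133, 50.8 and 40.9 on activated replicates 1 to 4 (log2 difference -5.92 ± 0.33). Non-myogenic cells, which were also taken straight from the sort, had 1695 ± 961 (SD, n = 4) for Nr4a1, 1800.5 ± 1209 for Atf3, 536 ± 353 for Egr2 and 2409 ± 1042 for Cebpd, above the activated cells in all 4 genes.

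**Figure D4:**
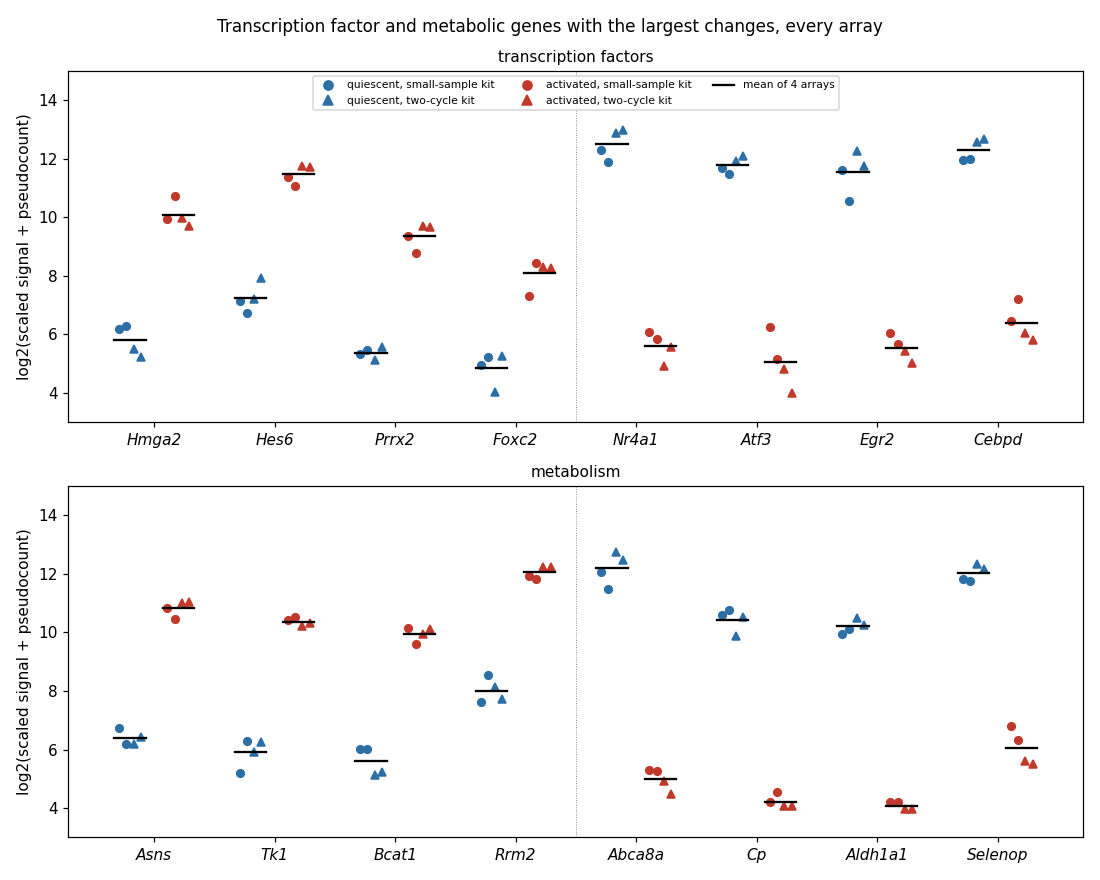
Log2(signal + 14.70) on each quiescent (blue) and activated (red) array, circles for the small-sample and triangles for the two-cycle kit, for the 4 transcription factor genes (top) and 4 metabolic genes (bottom) with the largest increase (left of the dotted line) and decrease (right); bars are means of 4 arrays. The genes were chosen among those whose arrays of the states do not overlap. The 2 kits lie close together beside the distance between the states, though the interaction of kit and group passed for Abca8a and Selenop.

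Basic helix-loop-helix factors, among them the myogenic regulators, fell in 28 and rose in 7 of 42 tested genes (median log2 difference -1.10). Msc, a repressor of myogenic targets also called MyoR, had signals of 1776, 2005, 1743 and 1660.5 on quiescent and 58.1, 2.86, 9.53 and 11.8 on activated replicates 1 to 4 (log2 difference -5.91 ± 0.32). Activated array 1 was the highest of the activated arrays, and all lay far below the quiescent ones. The Notch target gene Heyl and the circadian repressor gene Bhlhe40 fell, with log2 differences of -5.12 ± 0.35 and -4.75 ± 0.40, against an increase of 1.85 ± 0.18 for Myod1. Homeobox and paired factors outside the Hox clusters fell in 19 and rose in 6 of 31 tested genes. Beside Pax7 (-3.29 ± 0.20 on the log2 scale), Zhx1 and Meox2, a homeobox factor of somites, fell, with log2 differences of -3.08 ± 0.26 and -2.92 ± 0.22, and Dlx2 rose by 2.81 ± 0.24 beside Prrx2. Zhx1 was at -2.24 and -3.92 within the small-sample kit and the two-cycle kit (interaction adjusted p 0.0133).

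Hox genes, which record position along the body axis, fell in 9 and rose in 2 of 13 tested genes, with log2 differences between -2.16 and 0.86. Hoxc8 and Hoxd8 fell, with log2 differences of -2.16 ± 0.21 and -1.03 ± 0.18 and Hoxa5 at -0.69 ± 0.22 (adjusted p 0.0133), while Hoxa11, a gene of limb segments, rose by 0.86 ± 0.21 (0.56 with an adjusted p of 0.141 within the small-sample kit alone). The call of Hoxa5 was lost unscaled, after median centring and quantile normalization (adjusted p 0.166, 0.274 and 0.0684) and without quiescent replicate 3 or activated replicate 4 (log2 difference -0.55 in both, adjusted p 0.0507 and 0.0513). Hoxa7 and Hoxb2 did not pass, with log2 differences of 0.64 ± 0.33 and -0.19 ± 0.16.

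Nuclear receptors, which bind hormones and lipids, fell in 13 and rose in 2 of 18 tested genes. The clock gene Rora and the thyroid hormone receptor gene Thra fell, with log2 differences of -4.02 ± 0.21 and -3.22 ± 0.14. Pparg, the fatty acid sensor of fat cells, rose from 16.1 ± 12.2 to 76.0 ± 38.0 (SD, n = 4; log2 difference 1.54 ± 0.30) and Esrra, a regulator of mitochondrial genes, by 0.72 ± 0.18. Nr2f2, Nr2f6 and Rxra did not pass, with log2 differences of -0.40 ± 0.19, 0.14 ± 0.15 and -0.23 ± 0.19. The other probe set of Rxra was called lower (-1.09), as was the mean of its probe sets (-0.66, adjusted p 0.00984). Forkhead factors fell in 7 and rose in 2 of 10 tested genes. Foxo1 and Foxo3, which growth factor signals inhibit, fell, with log2 differences of -2.64 ± 0.25 and -2.35 ± 0.21 and Foxj2 at -1.61 ± 0.19, and Foxk2 did not pass at the probe set used (0.31 ± 0.20). Both of its other probe sets were called higher (0.73 and 1.02), as was the mean of its probe sets (0.68, adjusted p 0.000322).

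Sox, Tcf/Lef and high mobility group factors fell in 10 and rose in 3 of 18 tested genes, against 5 lower and 6 higher after median centring. Sox17, Sox18 and Sox7, the Sox factors of endothelial cells, fell, with log2 differences of -4.01 ± 0.16, -3.25 ± 0.18 and -2.87 ± 0.19. Their signals in non-myogenic cells were 992 ± 151 (SD, n = 4), 1262 ± 107 and 475 ± 145. Hmgb3 rose by a log2 difference of 2.00 ± 0.18 beside Hmga2, while Hmgn1, Hmgn3, Hmgn5, Sox12 and Tcf7l2, a partner of beta-catenin, did not pass, with log2 differences between -0.11 and 0.21.

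Krüppel-like, Egr and other zinc finger factors fell in 29 and rose in 3 of 45 tested genes (median log2 difference -1.41). Klf9 fell from 8809.6 ± 2289 to 368 ± 161 (SD, n = 4) and Klf4 from 2315 ± 442 to 168 ± 108, log2 differences of -4.59 ± 0.31 and -3.87 ± 0.28. Klf5 rose by a log2 difference of 1.83 ± 0.26, but its other probe set was called lower (-0.71), and Gata2 rose by 0.96 ± 0.13. Factors of the bZIP family fell in 26 and rose in 3 of 38 tested genes. Fosb fell, with a log2 difference of -5.83 ± 0.50. Its relative Fosl1 had signals of 404, 372, 41.5 and 53.0 on quiescent and 669, 901, 635 and 573 on activated replicates 1 to 4, with the quiescent arrays of the small-sample kit above those of the two-cycle kit and all activated arrays above both (log2 difference 2.15 ± 0.36, 0.97 and 3.32 within the small-sample kit and the two-cycle kit, interaction adjusted p 0.00507). Creb1 rose by a log2 difference of 0.57 ± 0.15, with an adjusted p of 0.188 within the small-sample kit alone.

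Factors that carry cytokine, stress and Smad signals to the nucleus fell in 27 and rose in 1 of 36 tested genes (median log2 difference -1.41). The regulators of NF-kappa B Nfkbiz and Bcl3 and the interferon regulatory factor gene Irf8 fell, with log2 differences of -5.31 ± 0.42, -4.34 ± 0.41 and -3.46 ± 0.26. Ets factors fell in 8 of 11 and rose in none, with Elf1, Ets2 and Etv3 at log2 differences of -2.88 ± 0.21, -2.13 ± 0.19 and -1.29 ± 0.19, while Elk3 (0.26 ± 0.16), Ets1 (-0.36 ± 0.23) and Gabpb1 (0.15 ± 0.16) did not pass. For Ets1 this rested on the probe set: the one with the highest mean on the 8 activated and quiescent arrays alone had a log2 difference of -0.57 with an adjusted p of 0.00598. Among the remaining factors 23 of 46 fell, including Lmo2, Nfib and Nfia (log2 differences -3.75 ± 0.15, -2.70 ± 0.17 and -2.37 ± 0.21), and 8 rose. Without activated replicate 4, with the probe set chosen anew, the log2 difference of Nfib was -3.29. Ankrd1, a muscle stretch-response gene, and Tead2, a partner of Yap, were among these, with increases of 2.33 ± 0.18 and 1.95 ± 0.26 on the log2 scale.

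In metabolism the largest increases were those of Asns, Tk1, Bcat1 and Rrm2. Asns, asparagine synthetase, had signals of 91.7, 57.6, 59.1 and 71.8 on quiescent and 1824, 1400.2, 2039 and 2105 on activated replicates 1 to 4 (log2 difference 4.45 ± 0.18, adjusted p 2.65e-10). Bcat1, the cytosolic transaminase of branched-chain amino acids, had 50.6, 50.9, 20.2 and 23.2 on quiescent and 1114, 763, 968 and 1089.5 on activated replicates 1 to 4 (log2 difference 4.34 ± 0.21, adjusted p 1.11e-09). For both genes the quiescent arrays lay below 100 and the activated arrays at 763 or more. Tk1, which salvages thymidine, stood at 22.1, 64.2, 45.7 and 62.0 on quiescent and 1347, 1447, 1169 and 1250.3 on activated replicates 1 to 4 (log2 difference 4.44 ± 0.22). Rrm2, the small subunit of ribonucleotide reductase, stood at 184, 360.2, 269 and 198 on quiescent and 3835, 3633, 4779 and 4843 on activated replicates 1 to 4 (log2 difference 4.04 ± 0.20). In both genes every activated array lay above every quiescent one.

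The largest decreases were those of Abca8a, Cp, Aldh1a1 and Selenop. Abca8a, a membrane transporter of the ATP-binding cassette family, had signals of 4263, 2837, 6932 and 5626 on quiescent and 25.2, 24.0, 15.4 and 7.65 on activated replicates 1 to 4 (log2 difference -7.20 ± 0.27, adjusted p 1.34e-10). Cp, the copper carrier and iron oxidase ceruloplasmin, had 1519, 1723, 919 and 1447 on quiescent and 3.81, 8.67, 1.99 and 2.08 on activated replicates 1 to 4 (log2 difference -6.21 ± 0.17, adjusted p 1.27e-11). Activated arrays were at most 25.2 for either gene. Aldh1a1, which makes retinoic acid, stood at 974, 1105, 1421 and 1202 on quiescent and 3.91, 3.61, 0.794 and 1.09 on activated replicates 1 to 4 (log2 difference -6.12 ± 0.14). Selenop, which carries selenium, stood at 3573, 3479.8, 5126 and 4589 on quiescent and 97.6, 66.0, 34.3 and 30.6 on activated replicates 1 to 4 (log2 difference -5.95 ± 0.25). Within the small-sample kit and the two-cycle kit Abca8a was at -6.48 and -7.92 and Selenop at -5.22 and -6.69 (interaction adjusted p 0.0299 and 0.00685). Non-myogenic cells had 5589 ± 1384 (SD, n = 4) for Abca8a, 454 ± 71.0 for Cp, 1233 ± 68.8 for Aldh1a1 and 4680.1 ± 475 for Selenop.

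Amino acid synthesis and one-carbon metabolism rose in 19 and fell in 10 of 33 tested genes (median log2 difference 0.78). Phgdh, the first enzyme of serine synthesis, had signals of 209, 413, 305 and 331 on quiescent and 3164, 2692, 4514 and 3829.9 on activated replicates 1 to 4 (log2 difference 3.45 ± 0.19), and its 3 other tested probe sets rose too. Glul, glutamine synthetase, and Cbs, which turns homocysteine into cystathionine, fell, with log2 differences of -3.22 ± 0.21 and -2.86 ± 0.25. Asl, Cth, Odc1 and Shmt1 did not pass, with log2 differences of 0.30 ± 0.18, -0.03 ± 0.21, -0.09 ± 0.18 and -0.10 ± 0.25, and 1 of the other 2 probe sets of Shmt1 was called higher (0.90). Odc1, the first enzyme of polyamine synthesis, was high in both states, at 3820.5 ± 387 and 3670.4 ± 957 (SD, n = 4).

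Asns is a textbook target of Atf4, which binds amino acid response elements of the form TGATGNAA, so the upstream 250 bases of RefSeq promoters (build GRCm38.p6) were searched for that motif on both strands. It was found in 1134 of 32851 promoters (3.45%), and of the 16 matched genes of amino acid synthesis and one-carbon metabolism that rose, Asns and Got1 held it (2 of 16, 12.5%), against 2 of the 27 matched genes tested on that list (7.41%) and 1056 of 27025 genes (3.91%). Got1, cytosolic aspartate transaminase, had a log2 difference of 2.67 ± 0.14 and is named for this match, after its values were seen. Of 45 matched bZIP and zinc finger factor genes that fell, 1 held the motif, Atf3. The motif was chosen with Asns in view, so the match of Asns is no result, and these shares do not test for enrichment. A match is a description of these letters and not of binding. The stretches below run from 20 bases before the match to the base before the start site, written 5' to 3' on the gene's strand, with the match in capitals, for Asns at chr6:7693210-7693252 (minus strand, match at -23 to -16 from the start site), Got1 at chr19:43524606-43524727 (minus strand, -102 to -95) and Atf3 at chr1:191183334-191183463 (minus strand, -110 to -103). They show the motif in 2 genes that rose and in 1 that fell. In Got1 and Atf3 it is read on the opposite strand.
Asns: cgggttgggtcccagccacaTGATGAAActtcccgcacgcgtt
Got1: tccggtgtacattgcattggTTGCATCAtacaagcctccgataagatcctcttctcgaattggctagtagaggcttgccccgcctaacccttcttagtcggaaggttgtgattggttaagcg
Atf3: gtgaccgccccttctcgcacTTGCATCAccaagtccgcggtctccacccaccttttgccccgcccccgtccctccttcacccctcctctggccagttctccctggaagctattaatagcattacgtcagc

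Nucleotide synthesis and salvage rose in 26 and fell in 9 of 43 tested genes (median log2 difference 0.68). Beside Tk1 and Rrm2, the nucleoside diphosphate kinase gene Nme1 rose by a log2 difference of 2.82 ± 0.17. The purine-degrading xanthine dehydrogenase gene Xdh fell, with a log2 difference of -1.84 ± 0.26, as did the mitochondrial adenylate kinase gene Ak3 at -1.09 ± 0.13. Tk1 and Rrm2 also belong to the division cycle, in which their transcripts are known to rise.

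Glycolysis, which turns glucose into pyruvate, rose in 16 and fell in 5 of 28 tested genes (median log2 difference 0.43). Eno3, the enolase of muscle, had signals of 268, 113, 423 and 404 on quiescent and 2991, 2969, 5509.6 and 6219.7 on activated replicates 1 to 4 (log2 difference 3.88 ± 0.25), higher on every activated than on every quiescent array and highest with the two-cycle kit. Pgam1, phosphoglycerate mutase, and Pck2, the mitochondrial enzyme that makes phosphoenolpyruvate, rose by log2 differences of 2.34 ± 0.14 and 1.92 ± 0.14. The glucose transporter gene Slc2a3 fell, with a log2 difference of -2.73 ± 0.19, as did Pfkfb3, which makes an activator of glycolysis, at -1.12 ± 0.24. The pentose phosphate pathway and the other sources of NADPH, the reducing power of synthesis, rose in 11 and fell in 2 of 15 tested genes (median log2 difference 0.78). The malic enzyme genes Me2 and Me1 and the phosphogluconate dehydrogenase gene Pgd rose by log2 differences of 2.86 ± 0.16, 2.47 ± 0.18 and 2.38 ± 0.18. H6pd, which works in the endoplasmic reticulum, and Rpia fell, with log2 differences of -2.47 ± 0.16 and -1.10 ± 0.13. Idh1 did not pass (0.22 ± 0.34, 1.32 and -0.87 within the kits), nor did Rpe at the probe set used (0.41 ± 0.19, adjusted p 0.0743), while its other probe set was called higher (log2 difference 1.42).

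The citric acid cycle rose in 10 and fell in 2 of 19 tested genes (median log2 difference 0.51). Idh3a of isocitrate dehydrogenase and the succinate dehydrogenase genes Sdhd and Sdhb rose by log2 differences of 1.95 ± 0.18, 2.30 ± 0.25 and 1.31 ± 0.16, and the other probe set of Sdhd was not called (0.43). Pcx, which feeds the cycle from pyruvate, fell, with a log2 difference of -0.87 ± 0.14. Mitochondrial carriers and oxidative phosphorylation rose in 63 and fell in 10 of 92 tested genes (median log2 difference 0.72), mostly by less than 2-fold, with 28 at 2-fold or more. Among the largest increases were the ATP synthase gene Atp5g1, the dicarboxylate carrier gene Slc25a10 and the complex III gene Uqcrq, with log2 differences of 2.19 ± 0.25, 2.06 ± 0.29 and 1.73 ± 0.22, the last 0.28 with an adjusted p of 0.256 as the mean of its probe sets. The creatine kinase genes Ckm and Ckmt2 of muscle fibres fell, with log2 differences of -3.38 ± 0.48 and -2.28 ± 0.34, for Ckm -2.10 and -4.66 within the small-sample kit and the two-cycle kit (interaction adjusted p 0.00511). Ckm is on the myofibre marker list, whose sums and difference between the kits are given above.

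Lipid metabolism gave no common direction. Cholesterol and isoprenoid genes fell in 11 and rose in none of 25, against 8 lower and 4 higher after median centring. The largest decreases on that list were not of synthesis: Abca1 exports cholesterol, Cyp27a1 oxidises it and Insig2 restrains its synthesis, with log2 differences of -4.24 ± 0.21, -2.67 ± 0.21 and -2.39 ± 0.16. Fatty acid and triglyceride synthesis fell in 14 (40%) and rose in 10 (28.6%) of 35 tested genes, near the 38.2% and 31.8% of all genes. After median centring the counts were 10 and 12. Fads3, of the desaturase family, and the lipid droplet gene Plin2 rose by log2 differences of 3.17 ± 0.14 and 2.38 ± 0.21, and the lipogenic gene Thrsp and Mgll, monoglyceride lipase, fell, with log2 differences of -4.75 ± 0.21 and -3.62 ± 0.32. Fatty acid oxidation fell in 10 and rose in 6 of 31, against 7 and 9 unscaled, 8 and 13 after median centring and 8 each after quantile normalization. The thioesterase gene Acot7 rose by a log2 difference of 3.69 ± 0.20 and the dehydrogenase gene Acadl by 1.06 ± 0.16, the latter 0.21 with an adjusted p of 0.203 as the mean of its probe sets. Acadsb, Acot1 and Acaa1a fell, with log2 differences of -2.87 ± 0.23, -1.60 ± 0.18 and -1.34 ± 0.19.

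Phospholipid and sphingolipid genes fell in 23 and rose in 8 of 46 tested genes, against 16 and 17 after median centring. Ugcg, which makes glucosylceramide, and the lipid phosphatase gene Plpp2 rose by log2 differences of 2.34 ± 0.18 and 1.58 ± 0.15, while Plpp3, the phospholipase D gene Pld1 and the phospholipase C gene Plcd1 fell, with log2 differences of -2.88 ± 0.18, -2.67 ± 0.22 and -2.50 ± 0.20. Eicosanoid genes rose in 4 and fell in 4 of 11, against 4 and 5 unscaled, 3 and 6 as the mean of probe sets and 4 and 2 on the 8 arrays alone. The median log2 difference of the list was -0.26, -0.02, -0.44 and 0.58 in the same order. Ptgr1, which inactivates prostaglandins and leukotrienes, and Ptgis, prostacyclin synthase, rose by log2 differences of 3.45 ± 0.18 and 2.36 ± 0.25, and the epoxide hydrolase genes Ephx1 and Ephx2 and the prostaglandin D synthase gene Ptgds fell, with log2 differences of -4.38 ± 0.22, -1.55 ± 0.20 and -2.52 ± 0.19. Cbr1, Lta4h and Ptges did not pass, with log2 differences of -0.34 ± 0.15, -0.07 ± 0.19 and -0.26 ± 0.13.

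Glutathione, thioredoxin and antioxidant genes rose in 23 and fell in 20 of 51 tested genes, and 17 and 17 within the small-sample kit alone. Gclm, a subunit of the enzyme that starts glutathione synthesis, had signals of 228, 325, 62.6 and 87.3 on quiescent and 652, 875, 1176 and 1022 on activated replicates 1 to 4 (log2 difference 2.53 ± 0.35), and Hmox1, haem oxygenase, of 90.8, 82.9, 2.78 and 6.70 on quiescent and 311, 348, 155 and 142 on activated replicates 1 to 4 (log2 difference 2.42 ± 0.39). In both genes the quiescent arrays were lower with the two-cycle than with the small-sample kit and every activated array was above them. Gsta4, a glutathione transferase, rose by a log2 difference of 1.99 ± 0.21, and Txnip, which binds thioredoxin and restrains glucose uptake, fell from 2138 ± 1359 to 24.5 ± 12.2 (SD, n = 4; log2 difference -5.57 ± 0.32). Retinoid, aldehyde and alcohol dehydrogenases and cytochromes P450 fell in 30 and rose in 2 of 41 tested genes (median log2 difference -1.30). Beside Aldh1a1, the alcohol dehydrogenase gene Adh1 and the aldehyde oxidase gene Aox1 fell, with log2 differences of -5.55 ± 0.24 and -4.90 ± 0.15, and Hsd17b12, which also lengthens fatty acids, and Cyb5r3 rose by 1.55 ± 0.13 and 0.68 ± 0.17.

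Glycogen, hexosamine and uronate genes fell in 19 and rose in 18 of 49 tested genes, against 16 and 22 unscaled, 15 and 24 after median centring and 17 and 21 after quantile normalization. Of the hyaluronan synthases, Has2 rose by a log2 difference of 2.38 ± 0.27 and Has1 fell, with a log2 difference of -2.46 ± 0.53. The sulfotransferase gene Chst2 rose by 2.52 ± 0.27, and Gfpt2, which opens the hexosamine pathway, and the muscle glycogen phosphorylase gene Pygm fell, with log2 differences of -3.38 ± 0.18 and -1.98 ± 0.45.

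Amino acid transporters fell in 10 and rose in 7 of 20 tested genes, against 8 each unscaled, 6 and 9 after median centring and 7 each after quantile normalization. The taurine transporter gene Slc6a6 and the cationic amino acid transporter gene Slc7a3 rose by log2 differences of 1.63 ± 0.19 and 1.30 ± 0.16, and the peptide transporter gene Slc15a2, Slc43a3 and Slc7a8 fell, with log2 differences of -4.26 ± 0.22, -3.11 ± 0.14 and -2.64 ± 0.29. Slc3a2, the shared heavy chain of several such transporters, did not pass (log2 difference 0.14 ± 0.18, adjusted p 0.51), nor did Slc1a4 (-0.06 ± 0.15) and Slc6a17 (-0.24 ± 0.27). Metal handling genes fell in 18 (40.9%) and rose in 11 (25%) of 44, against 38.2% and 31.8% of all genes. The counts were 14 and 15 unscaled and 12 and 18 after median centring. The metalloreductase genes Steap1 and Steap4 went opposite ways, with log2 differences of 3.44 ± 0.20 and -4.63 ± 0.25, and Mt2, a metallothionein, fell, with a log2 difference of -2.75 ± 0.26. Other transporters fell in 21 (39.6%) and rose in 12 (22.6%) of 53, against 19 and 26 after median centring. Atp1b1 of the sodium pump rose by a log2 difference of 2.45 ± 0.18, Abca8b and the prostaglandin transporter gene Slco2a1 fell, with log2 differences of -4.27 ± 0.16 and -4.20 ± 0.23, and the phosphate transporter gene Slc20a1 rose by 1.58 ± 0.18 at one probe set and was called lower at its other (-1.02).

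The kits share no arrays, so their log2 differences, each from 2 against 2 arrays, were set side by side. Of 352 class genes called higher, 350 lay above 0 in both kits, and of 722 called lower, 718 lay below 0 in both; the 6 others, named after their values were seen, were Gal, Mef2a, Acvr2a, Blvrb, Lcn2 and Wif1. The call itself rests on the same 8 arrays. Of the 64 named genes that did not pass, 37 had log2 differences of opposite sign in the kits, among them Igf2, Tnfrsf12a, Fabp3, Idh1 and Pcdh7, given above.

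A gene that did not pass was judged by 1 probe set, and for 11 of the 64 another tested probe set was called. Beside Foxk2, Rxra, Shmt1 and Ets1, given above, these were Rpe (1.42), Bmpr1a (lowest other probe set at a log2 difference of -0.82), Scarb1 (-0.42 and -0.75), Tcf7l2 (-0.66), Odc1, Tnfrsf21 (-0.48) and Npc2 (0.45).

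**Figure D5:**
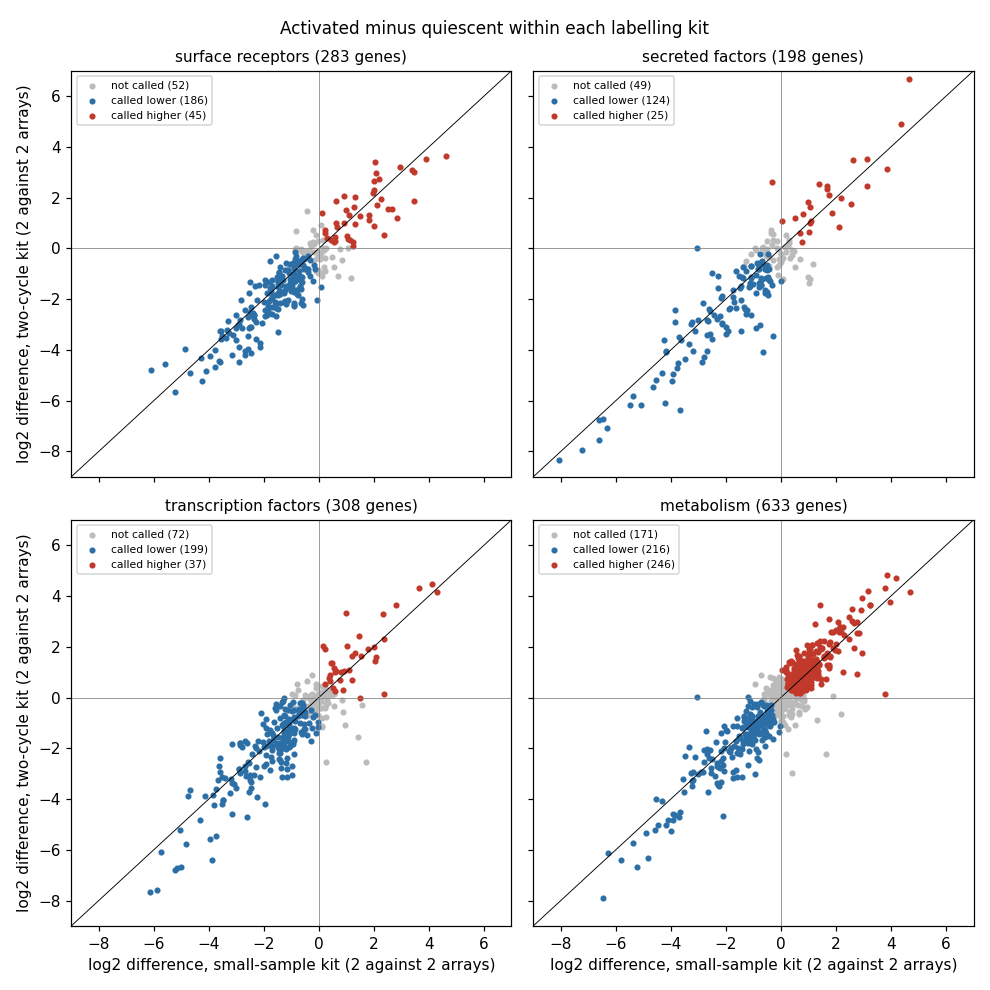
Log2 difference, activated minus quiescent, within the small-sample kit (x axis) and the two-cycle kit (y axis), 1 point per tested gene of each class, red for called higher, blue for called lower and grey for not called. Most points lie near the diagonal, and the grey ones gather around 0.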

How the data were processed

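Gene expression was measured on Affymetrix Mouse 430A arrays, 1 per sample. The deposited values are probe set intensity on a linear scale, made with MAS 5 per the submitters' processing notes, and no source used here gives its settings. Per the labels' protocols replicates 1 and 2 of both satellite cell groups were labelled with a small-sample kit and replicates 3 and 4 with a two-cycle kit. Their deposited trimmed means ran from 160.44 to 501.52, so each array was scaled to a common mean of 235.14, trimmed by 2% at each tail. The precision is limited by the number of arrays. Of 22690 probe sets, 20380 had 1 gene in the platform's annotation table, of which 20351 were updated by Entrez ID, 691 had several, 1555 had none and 64 were controls. Each of 12393 genes was represented by its probe set of highest mean log2 value, and those whose mean signal reached 47.03 were tested with limma 3.58.1 in R 4.3.3, on log2(signal + 14.70), with group and kit as terms (8 residual degrees of freedom). The scripts were tested on simulated data.

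The classes, lists and comparison were chosen with earlier results of these data known. Named are, for each class, the 4 called genes of largest fold each way among those without overlapping arrays. Per list with at least 3 calls, the 3 largest in the direction with more calls and the 2 largest in the other are named. Members that did not pass are named where a list has 1 to 5 of them, with Pax7, Myod1 and partners of named receptors. Same-numbered activated and quiescent arrays deviated together from their group means (r = 0.265, 0.146, 0.171 and 0.279 for replicates 1 to 4, across genes), but not within kits (-0.029 to -0.089), and each number lies in 1 kit. Promoter letters are from RefSeq, GRCm38.p6. Alternatives were other scalings, pseudocounts, filters and probe set rules, array weights, no kit term, each kit alone, only the 8 arrays, the replicate block, and each array left out. Each alternative that kept 1 probe set per gene chose it anew. Figures were drawn with Python 3.11.15, pandas 2.3.3 and matplotlib 3.10.9.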

Additional observations from a re-analysis of the deposited data

Results flagged for a closer look

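Values here are log2(signal + 14.70). Among the 4 arrays of each state, 620 sets of 4 values of the named genes were checked for 1 array apart from the other 3 by Dixon's ratio above its critical value, and 26 were found. Chance flags about 1 in 20 sets of this size. These arrays were not left out of any value in the report.

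Activated array 1 stood above the other activated arrays for Heyl (7.47 against 5.32 to 5.59), Fgfr4 (9.72 against 8.10 to 8.22), Cxcl10 (5.11 against 4.04 to 4.13), Stc2 (6.90 against 6.25 to 6.32) and Rpia (8.33 against 8.04 to 8.06). It stood below them for Foxc2 (7.32 against 8.28 to 8.43) and Mfge8 (8.47 against 9.38 to 9.45). Activated array 2 was above the others for Kcnn4 (9.57 against 8.98 to 9.07), Igfbp2 (9.32 against 8.55 to 8.65) and Itga6 (10.13 against 9.84 to 9.88), and below them for Meox2 (3.98 against 4.66 to 4.72) and Rxra (6.87 against 7.28 to 7.35). Activated array 4 was below the others for Ramp3 (5.10 against 5.53 to 5.60).

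Quiescent array 2 stood above the other quiescent arrays for Igf2r (10.66 against 9.01 to 9.18), Smo (9.63 against 8.85 to 8.98), Wnt4 (8.92 against 8.34 to 8.44), Ccn4 (7.67 against 6.91 to 7.0), Alcam (5.85 against 5.06 to 5.16) and Sct (4.83 against 4.55 to 4.58). It stood below them for Fosb (10.36 against 10.84 to 10.89), Clec14a (6.54 against 6.97 to 7.05) and Me2 (5.27 against 5.83 to 5.92). Quiescent array 3 was the lowest for Vegfb (4.44 against 6.45 to 6.64), Lrp10 (8.15 against 8.56 to 8.64) and Ltbr (7.52 against 7.79 to 7.83), and quiescent array 4 for Acaa1a (8.13 against 8.49 to 8.52). For Fgfr4, named as a partner of Fgfr1, the activated and quiescent arrays did not overlap with these values included. Foxc2, Heyl, Vegfb and Wnt4 were picked among genes without such overlap, so their separation is no result.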

How the results depend on the processing

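The direction of the balance of calls in the receptor, secreted factor and transcription factor classes was the same under all alternatives run, and their counts moved with the signal filter, the scaling and the probe set rule. After median centring 1973 of all genes were lower, and 62 transcription factor genes were higher. Without a signal filter 285 receptor and 194 secreted factor genes were lower. With every probe set tested on its own, 40 secreted factor, 56 transcription factor and 401 metabolic probe sets were higher and 302 transcription factor probe sets lower. In metabolism higher calls outnumbered lower ones except with no signal filter (253 and 256). With each array left out in turn, the calls over all genes were 2379 to 2528 higher and 2859 to 3014 lower. The ranges of higher and lower calls were 39 to 45 and 180 to 191 for receptors, 23 to 26 and 119 to 126 for secreted factors, 32 to 36 and 190 to 203 for transcription factors, and 235 to 251 and 205 to 215 for metabolism. With the replicate block in place of the kit on the 8 arrays, pairing gave 2268 higher and 2535 lower genes, with 39 and 156 for receptors, 24 and 95 for secreted factors, 32 and 180 for transcription factors, and 231 and 174 for metabolism. The block took the call from none of the named genes. Of 246 called named genes, 238 were called in every setting in which they were tested. Named genes that passed were mostly picked for a large fold without overlap on these arrays. That they kept their calls, under the block or elsewhere, is therefore no measure of how firm calls are in general. The same share over all called genes was not counted. Stc2 and Hoxa5 lost the call without 1 array, and none reversed. The arrays carry no detection calls here, so low signals have no stated background.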
